A study of Mus musculus with 16 samples.

Results

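The 10 genes described here are markers of mesenchymal cells and fibroblasts: Pdgfra, Pdgfrb, Fgf7, Fn1, Sparc, Postn, Thy1, Fap, Cdh11 and S100a4. They were taken by name, with every probe that carried the current or an older symbol or an accession of the gene, which gave 19 probes for 10 of the 27670 genes on the array. The cells were 4TO7, derived from a mouse mammary carcinoma, and their RNA was read on 16 two-colour Agilent arrays, each with labelled sample RNA in 1 dye and a common reference RNA from 11 mouse cell lines in the other. The study asked how expression responds to overexpression of the miR-200 miRNAs, with E-cadherin overexpression beside it. The 8 groups of 2 arrays each were Cluster 1 miRNA cells and their Puro vector cells, Cluster 2 miRNA cells and Hygro vector cells, Clusters 1+2 cells and cells with both the Hygro and Puro vectors, and CDH1 (E-cadherin) cells with a Puro vector control of their own. The controls carried empty pMSCV retroviral vectors, all groups were 4TO7 cells in serum-containing medium, and the labels give no promoter or insert species for CDH1. The series design calls the repeats A and B biological replicates. The sources do not say whether these were separate infections, so the p-values below measure only the spread between such repeats.

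Fibronectin, SPARC and periostin are matrix proteins that fibroblasts and cells in epithelial-mesenchymal transition secrete. PDGF receptors alpha and beta receive PDGF signals on mesenchymal cells, and FGF7 (keratinocyte growth factor) is made by stromal cells and acts on an epithelial FGF receptor. In that transition carcinoma cells give up E-cadherin junctions and take up mesenchymal genes, and miR-200 miRNAs are known for opposing it by repressing Zeb1 and Zeb2, the repressors of the E-cadherin gene.

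The miR-200 family has 5 members with a closely related seed, the bases that pair with target transcripts. The mature strands are shown because the overexpressed miRNA clusters belong to this family; the sources do not say which of them Cluster 1 or Cluster 2 holds. Capitals mark the seed, bases 2 to 8, and the sequences are from RefSeq (GRCm38.p6). The first 3 share the seed AAUACUG and the last 2 share AACACUG.
miR-200b-3p: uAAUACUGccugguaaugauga
miR-200c-3p: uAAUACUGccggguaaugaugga
miR-429-3p: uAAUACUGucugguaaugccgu
miR-200a-3p: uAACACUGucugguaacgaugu
miR-141-3p: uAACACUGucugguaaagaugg

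A set of 5 probes that carry the results is printed next, as deposited, in lower case and 5′ to 3′, because the values below rest on what these 60-base oligonucleotides bind. Positions are in build mm7, as in the scanner files. The 2 Fn1 probes lie at chr1:71832689-71834926, where the 60 bases span 2238 bases of genome, and at chr1:71839394-71839453, both on the minus strand. The Fgf7 probe lies at chr2:125830264-125830323 on the plus strand. The Sparc probe spans 2658 bases at chr11:55352704-55355361 and the Cdh11 probe lies at chr8:101261817-101261876, both on the minus strand.
Fn1, first probe: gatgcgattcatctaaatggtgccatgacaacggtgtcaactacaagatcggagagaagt
Fn1, second probe: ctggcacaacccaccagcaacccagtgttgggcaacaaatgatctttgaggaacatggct
Fgf7: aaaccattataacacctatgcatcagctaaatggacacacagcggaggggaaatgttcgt
Sparc: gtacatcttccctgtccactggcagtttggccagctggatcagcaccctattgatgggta
Cdh11: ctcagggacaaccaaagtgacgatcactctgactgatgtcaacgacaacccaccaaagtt

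Signal limited what could be read. Of the 19 probes, 16 were well above background on both arrays of at least 1 group and were tested, which left 9 members. Neither probe of Fap, a membrane serine protease of activated fibroblasts, was well above background on any of the 16 arrays, so Fap was not tested. The second Thy1 probe was not well above background on any array either. Over the whole array 18993 genes were tested, the log2 ratios of the repeats correlated at 0.94 to 0.98 across genes, and the scanner software marked 264 to 1493 spots per array. Cluster 2, Clusters 1+2 and their controls were in Cy3 on slides 1 and 2, which held repeats A and B. CDH1 and its control were in Cy5 on slide 3, and Cluster 1 and its control in Cy5 on slide 4. Ratios of the Cy3 and Cy5 groups are therefore never compared with each other, nor are ratios of different genes. Epithelial keratins Krt8 and Krt18 were above background on all 8 vector arrays, Epcam on 7 and Cdh1 on 6. Of the markers of other cell types, 1 of 6 leukocyte, 0 of 4 endothelial, 1 of 5 pericyte and smooth muscle, and 1 of 3 adipocyte genes were above background on all 8.

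A gene is said to have risen or fallen where limma's two-sided moderated test passed 0.05 after Benjamini-Hochberg adjustment across the whole set of tested genes. By that rule 6 of the 9 members fell and 1 rose in CDH1 cells over their own Puro vector, against 14.5% of all genes called in that comparison, 6.78% lower and 7.67% higher. The median log2 fold change of the 9 members there was -0.99, against 0.01 over all genes. In Clusters 1+2 cells 3 members fell and 1 rose over the Hygro and Puro vectors, where 24.9% of all genes were called, 12.7% lower and 12.1% higher. Both counts of falls include S100a4, whose spot was saturated on many arrays. Without it 5 members fell in CDH1 cells and 2 in Clusters 1+2 cells. Only Pdgfra among the 9 fell in Cluster 2 cells over Hygro vector, where 2.85% of genes were called, 1.07% lower, and only Fgf7 was called in Cluster 1 cells over Puro vector, higher, where 8.24% were called, 4.84% higher. Their medians were -0.03 in Clusters 1+2 cells, -0.18 in Cluster 2 cells and 0.14 in Cluster 1 cells. Against the other Puro vector, that of Cluster 1, 2 members fell in CDH1 cells, Pdgfra and Fgf7, where 2.42% of all genes were called, 1.15% lower. With 2 arrays a group, arrays that do not overlap are common. Over all genes both overexpression arrays lay below both control arrays for 28.4% of genes in Clusters 1+2, 22.3% in Cluster 2, 26.2% in CDH1, 24.3% in Cluster 1 and, against the other Puro vector, 23.8% in CDH1. They lay above both for 29.4%, 22%, 28.1%, 26.9% and 22.6% of genes in the same order. These are arrays of bulk cultures, in which fewer cells that express a gene and less RNA per cell cannot be told apart.

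**Figure D1:**
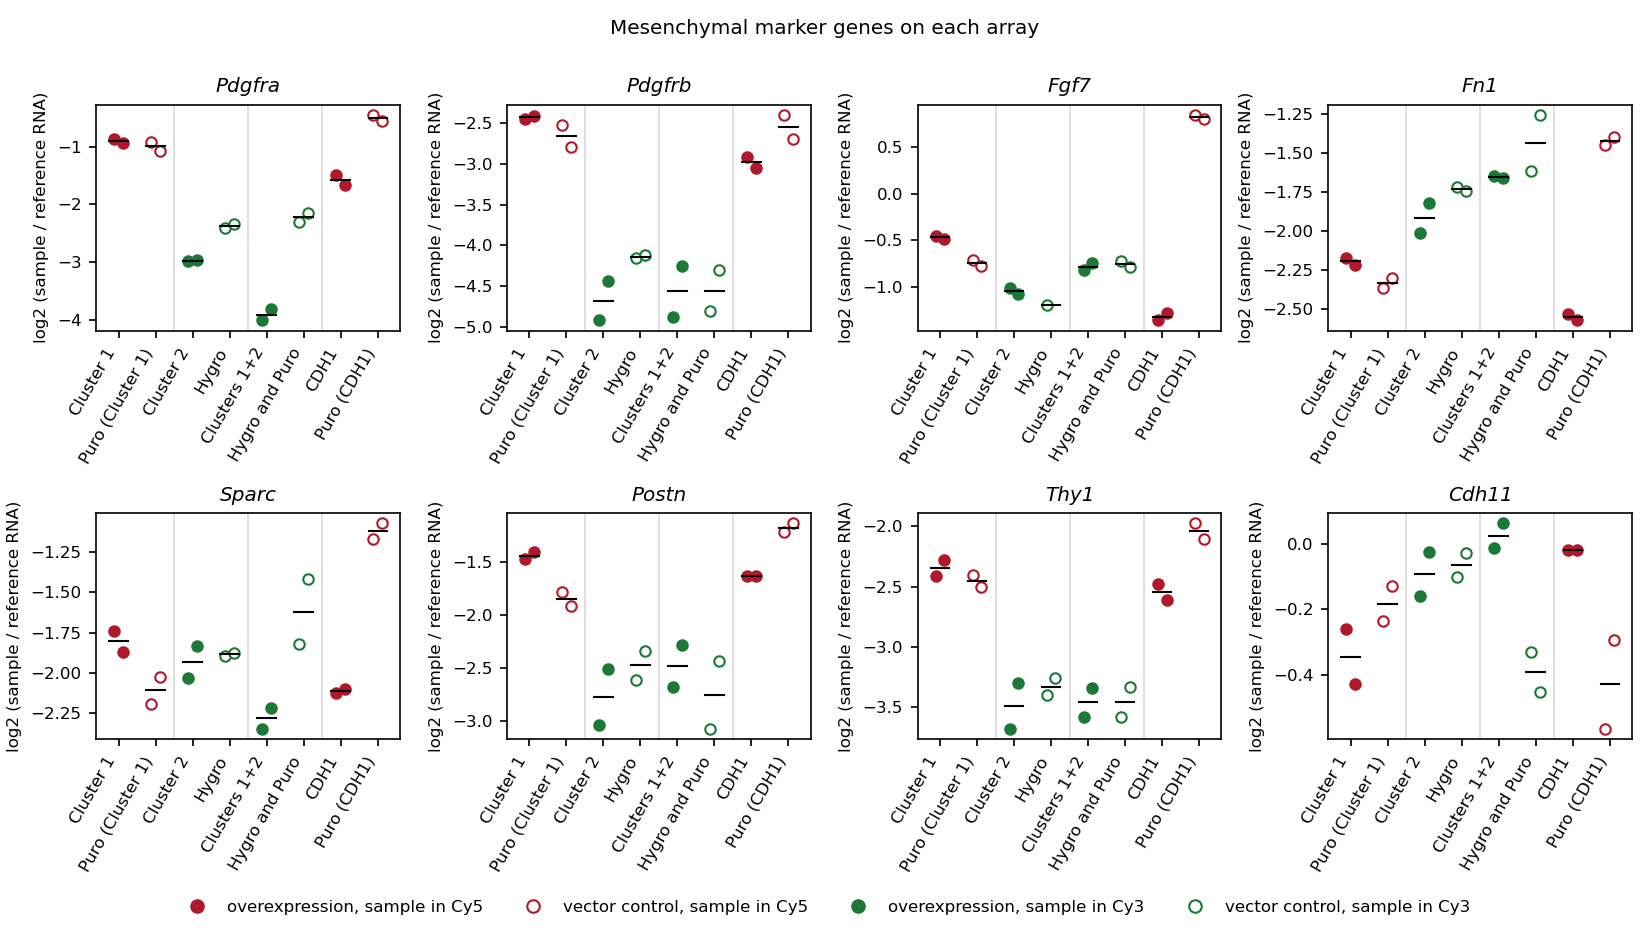
Log2 ratio of sample over reference RNA on each array (y axis) for 8 members in the 8 groups (x axis). Filled points are overexpression cells, open points vector controls, red the Cy5 and green the Cy3 samples, and bars are group means. Pdgfra lies lowest on both arrays of Clusters 1+2 among the Cy3 groups, at -4.01 and -3.81, and Fgf7 stands alone at 0.85 and 0.81 in the Puro vector cells for CDH1.

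Pdgfra, the receptor for PDGF-A and PDGF-C, fell in 3 of the 4 comparisons with an own vector. Its log2 ratios were -4.01 and -3.81 in Clusters 1+2 cells, against -2.30 and -2.15 in Hygro and Puro vector cells. They were -2.98 and -2.97 in Cluster 2 cells, against -2.41 and -2.34 in Hygro vector cells. In both pairs every overexpression array lay below both control arrays. The log2 fold change was -1.69 ± 0.09 (SE, n = 2 each, limma adjusted p = 5.76e-08) in Clusters 1+2 cells, or 3.22-fold lower, and -0.60 ± 0.09 (adjusted p = 0.00328) in Cluster 2 cells. The size in Clusters 1+2 cells ranged from -2.32 to -0.83 over 17 alternatives, the smallest with the mean of both probes. The Cluster 2 call was lost in 5 of 17, with values from -0.85 to -0.31 over the 17. The effect in Clusters 1+2 cells minus that in Cluster 2 cells was -1.08 ± 0.13 (adjusted p = 0.000346). On slides 1 and 2 taken alone, the difference was -1.71 and -1.66 in Clusters 1+2 cells and -0.57 and -0.63 in Cluster 2 cells. The order of the Cy3 levels was thus Clusters 1+2, Cluster 2, Hygro vector, then Hygro and Puro vectors. The 2 control groups, at means of -2.37 ± 0.05 and -2.22 ± 0.11 (SD, n = 2 each), were not tested against each other.

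In the Cy5 groups Pdgfra was at -1.49 and -1.66 in CDH1 cells, against -0.45 and -0.56 in their Puro vector cells. It was at -0.87 and -0.94 in Cluster 1 cells, against -0.92 and -1.07 in theirs. The CDH1 arrays lay below all others of that dye, and the Cluster 1 arrays overlapped their controls. The log2 fold change in CDH1 cells was -1.07 ± 0.09 (limma adjusted p = 1.19e-05), and in Cluster 1 cells 0.10 (95% interval -0.11 to 0.30, adjusted p = 0.686). Against the Puro vector cells of Cluster 1 the change in CDH1 cells was -0.58 ± 0.09 (adjusted p = 0.00827). That call was lost without CDH1 repeat B (-0.49, adjusted p = 0.0861) or without repeat A of those Puro vector cells (-0.50, adjusted p = 0.0755).

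The Pdgfra values come from a probe printed in 10 spots at chr5:74616116-74616175, whose unmarked spots on 1 array had an SD of 0.04 to 0.15 in log2 ratio. The other Pdgfra probe, at chr5:74581841-74581900, was well above background on 9 of 16 arrays and was not called in any of these comparisons. Its log2 fold changes were 0.03 in Clusters 1+2 cells, -0.01 in Cluster 2 cells and -0.25 in CDH1 cells (limma adjusted p = 0.132 over probes).

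Pdgfrb, the receptor for PDGF-B, was not called in any comparison. Its 1 probe was well above background on 13 of 16 arrays. The log2 ratios were -4.87 and -4.25 in Clusters 1+2 cells, against -4.81 and -4.30 in Hygro and Puro vector cells, and -4.92 and -4.43 in Cluster 2 cells, against -4.15 and -4.12 in Hygro vector cells. They were -2.92 and -3.05 in CDH1 cells, against -2.40 and -2.70 in their Puro vector cells, and -2.45 and -2.42 in Cluster 1 cells, against -2.53 and -2.80 in theirs. Only the Clusters 1+2 arrays overlapped their control arrays. The log2 fold change was -0.54 (95% interval -1.001 to -0.08, limma adjusted p = 0.260) in Cluster 2 cells and -0.01 (-0.47 to 0.46) in Clusters 1+2 cells. It was -0.43 (-0.90 to 0.03) in CDH1 cells and 0.23 (-0.24 to 0.69) in Cluster 1 cells. With the slide as a replicate block Pdgfrb was called lower in Cluster 2 cells (adjusted p = 0.0380).

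Fgf7 had its largest difference in CDH1 cells. Its log2 ratios were -1.36 and -1.29 in CDH1 cells, against 0.85 and 0.81 in their Puro vector cells. The log2 fold change was -2.15 ± 0.07 (n = 2 each, limma adjusted p = 9.92e-09), or 4.45-fold lower. The Puro vector cells of Cluster 1 were at -0.71 and -0.78, and against these the change in CDH1 cells was -0.58 ± 0.07 (adjusted p = 0.00105). The 2 Puro vector controls themselves differed by 1.57 ± 0.07, higher in that for CDH1 (adjusted p = 1.90e-07).

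In Cluster 1 cells Fgf7 was at -0.46 and -0.48, above both arrays of their Puro vector cells, and rose by 0.27 ± 0.07 (limma adjusted p = 0.0292). This call was lost in 13 of 17 alternatives, among them leaving out any 1 of the 4 arrays (adjusted p = 0.0741 to 0.166). Against the Puro vector cells for CDH1 the same Cluster 1 arrays were lower by -1.30 ± 0.07 (adjusted p = 5.31e-07), so the direction depends on which Puro control is used. In Clusters 1+2 cells Fgf7 was at -0.82 and -0.74, against -0.72 and -0.79 in Hygro and Puro vector cells, and the groups overlapped (-0.03, 95% interval -0.18 to 0.12). In Cluster 2 cells it was at -1.01 and -1.08, against -1.19 on the 1 usable Hygro vector array. The spot on Hygro vector repeat B was marked by the software and left out (0.15, adjusted p = 0.449).

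**Figure D2:**
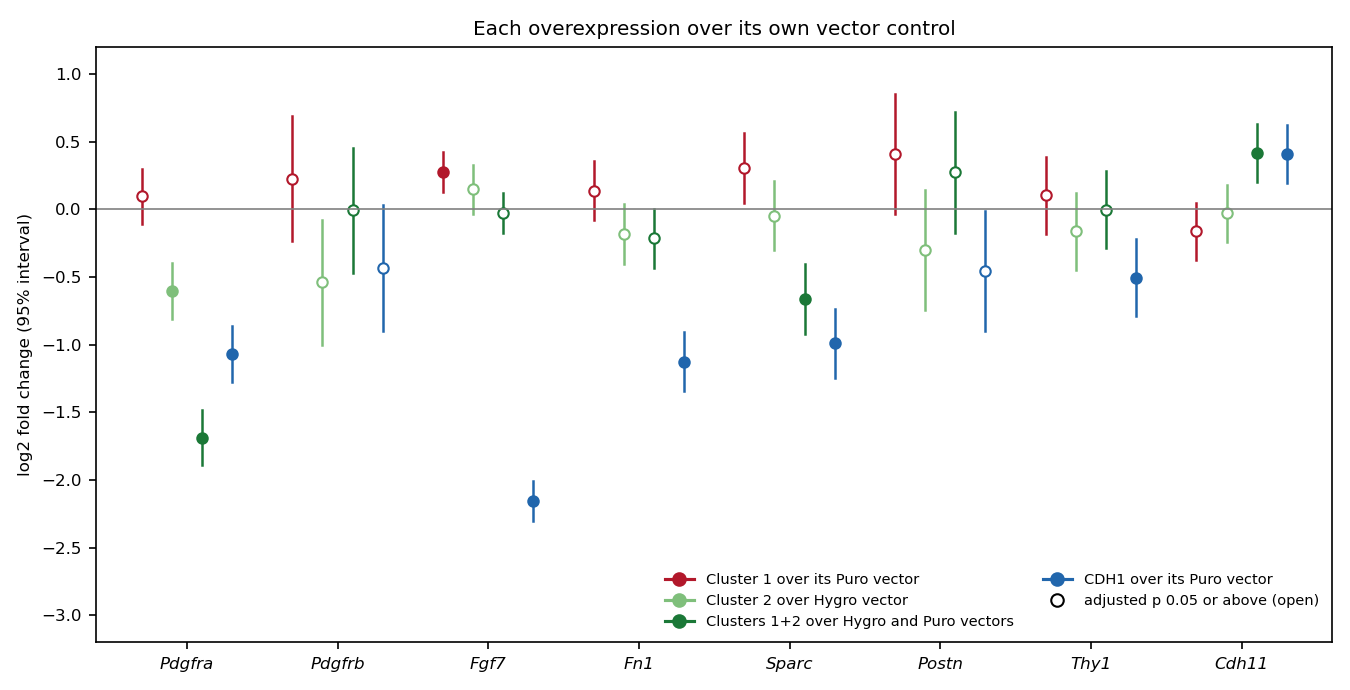
Log2 fold change of 8 members (x axis) in each overexpression over its own vector control, with the 95% interval as a line. Filled points passed limma's adjusted p of 0.05. The 4 largest falls in CDH1 cells are Fgf7 at -2.15, Fn1 at -1.13, Pdgfra at -1.07 and Sparc at -0.99, and the largest fall in Clusters 1+2 cells is Pdgfra at -1.69.

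Fn1, which encodes fibronectin, fell in CDH1 cells over their own control. The log2 ratios of the probe printed in 10 spots were -2.53 and -2.57 in CDH1 cells, against -1.45 and -1.40 in their Puro vector cells, a log2 fold change of -1.13 ± 0.10 (n = 2 each, limma adjusted p = 1.35e-05). The Puro vector cells of Cluster 1 were at -2.37 and -2.30, which left a change of -0.22 (95% interval -0.44 to 0.00, adjusted p = 0.348) against them. Fn1 was at -2.17 and -2.21 in Cluster 1 cells, and the change over their own Puro vector cells was 0.14 (-0.08 to 0.36).

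In the Cy3 groups Fn1 was not called. Its log2 ratios were -1.65 and -1.66 in Clusters 1+2 cells, against -1.62 and -1.26 in Hygro and Puro vector cells, and -2.01 and -1.82 in Cluster 2 cells, against -1.72 and -1.74 in Hygro vector cells. The log2 fold changes were -0.21 (95% interval -0.43 to 0.01, limma adjusted p = 0.157) and -0.18 (-0.40 to 0.04, adjusted p = 0.437). Without repeat A of the Hygro and Puro vector cells Fn1 was called lower in Clusters 1+2 cells (-0.40, adjusted p = 0.00738). The second Fn1 probe fell by 0.73 in CDH1 cells (adjusted p = 0.00280 over probes). The third, above background on 12 of 16 arrays, was at -0.06 there and was not called.

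Sparc, which encodes a collagen-binding matrix glycoprotein, fell in Clusters 1+2 cells and in CDH1 cells. Its log2 ratios were -2.35 and -2.21 in Clusters 1+2 cells, against -1.82 and -1.42 in Hygro and Puro vector cells (-0.66 ± 0.12, n = 2 each, limma adjusted p = 0.00113). They were -2.12 and -2.10 in CDH1 cells, against -1.17 and -1.07 in their Puro vector cells (-0.99 ± 0.12, adjusted p = 0.000131). In both pairs the groups did not overlap, and the repeats of the Hygro and Puro vector cells lay further apart than those of the other 3 groups. On slides 1 and 2 taken alone the difference in Clusters 1+2 cells was -0.53 and -0.79. The Puro vector cells of Cluster 1, at -2.19 and -2.03, lay on both sides of the CDH1 arrays, and the change against them was 0.00 (95% interval -0.26 to 0.25, adjusted p = 0.996).

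Cluster 2 cells, with Sparc at -2.03 and -1.83, overlapped Hygro vector cells at -1.90 and -1.87 (-0.05, 95% interval -0.30 to 0.21). Cluster 1 cells were at -1.74 and -1.87 (0.30, 0.05 to 0.56, limma adjusted p = 0.161 over all genes). The second Sparc probe, at chr11:55351268-55351327, gave -0.60 in Clusters 1+2 cells and -0.92 in CDH1 cells, both called. Against the other Puro vector it gave -0.52 in CDH1 cells (adjusted p = 0.111 over probes), where the first probe gave 0.00.

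Postn, which encodes periostin, was not called in any comparison. Its log2 ratios were -2.68 and -2.29 in Clusters 1+2 cells, against -3.08 and -2.44 in Hygro and Puro vector cells, and -3.04 and -2.51 in Cluster 2 cells, against -2.61 and -2.34 in Hygro vector cells. They were -1.63 and -1.63 in CDH1 cells, against -1.22 and -1.14 in their Puro vector cells, and -1.48 and -1.41 in Cluster 1 cells, against -1.78 and -1.92 in theirs. The Cy3 groups overlapped and the Cy5 groups did not. The 95% interval of its log2 fold change was -0.17 to 0.72 in Clusters 1+2 cells, -0.75 to 0.14 in Cluster 2 cells, -0.90 to -0.01 in CDH1 cells and -0.03 to 0.85 in Cluster 1 cells. Its probe was well above background on 1 of 2 arrays in each of the 4 Cy3 groups. With the slide as a replicate block Postn was called higher in Clusters 1+2 cells (0.27, adjusted p = 0.0478).

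Thy1, a GPI-anchored surface glycoprotein of fibroblasts, was at -2.48 and -2.61 in CDH1 cells, against -1.98 and -2.10 in their Puro vector cells. It fell by 0.50 ± 0.13 (limma adjusted p = 0.0212) without overlap of the groups. Leaving out any 1 of these 4 arrays lost the call (adjusted p = 0.0515 to 0.150). Against the other Puro vector the change was -0.09 (95% interval -0.38 to 0.19). In the Cy3 groups Thy1 was at -3.58 and -3.33 in Clusters 1+2 cells, against -3.58 and -3.33 in Hygro and Puro vector cells, and at -3.68 and -3.30 in Cluster 2 cells, against -3.40 and -3.26 in Hygro vector cells. In Cluster 1 cells it was at -2.41 and -2.27, against -2.40 and -2.50 in their Puro vector cells. These 3 pairs overlapped, and none was called.

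Cdh11, which encodes the mesenchymal cadherin OB-cadherin, was the member called higher in both Clusters 1+2 and CDH1 cells, by its brightest probe only. Its log2 ratios were -0.01 and 0.06 in Clusters 1+2 cells, against -0.33 and -0.45 in Hygro and Puro vector cells, a change of 0.42 ± 0.10 (limma adjusted p = 0.00687). They were -0.02 and -0.02 in CDH1 cells, against -0.57 and -0.29 in their Puro vector cells, a change of 0.41 ± 0.10 (adjusted p = 0.0133). The groups did not overlap in either pair. The Clusters 1+2 call was lost without repeat B of the vector cells (adjusted p = 0.0621) or of the Clusters 1+2 cells (adjusted p = 0.0530), and in 9 of 17 alternatives in all, where the value lay between 0.19 and 0.48 over the 17 and the adjusted p reached 0.559. The CDH1 call was lost without repeat A of the vector cells (0.27, adjusted p = 0.122), CDH1 repeat A (adjusted p = 0.0645) or CDH1 repeat B (adjusted p = 0.0724). The change was 0.16 (95% interval -0.05 to 0.37) in CDH1 cells against the other Puro vector, -0.03 in Cluster 2 cells and -0.16 in Cluster 1 cells. Its log2 ratios in Cluster 2 cells were -0.16 and -0.03, against -0.10 and -0.03 in Hygro vector cells, and in Cluster 1 cells -0.26 and -0.43, against -0.24 and -0.13 in their Puro vector cells. The other Cdh11 probes were above background on 7 and 4 of 16 arrays. In CDH1 cells over their own control they were at -0.33 and -0.27 and were not called, opposite in sign to the probe above. In Clusters 1+2 cells over their control they were at 0.03 and 0.13 and were not called. Their mean log2 ratios in Clusters 1+2 cells were -3.79 and -3.89, against 0.02 for the probe above. Why the probes differ was not tested, so the rise is a result of 1 probe. With the mean of all probes Cdh11 was at -0.06 in CDH1 cells and was not called (adjusted p = 0.901).

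**Figure D3:**
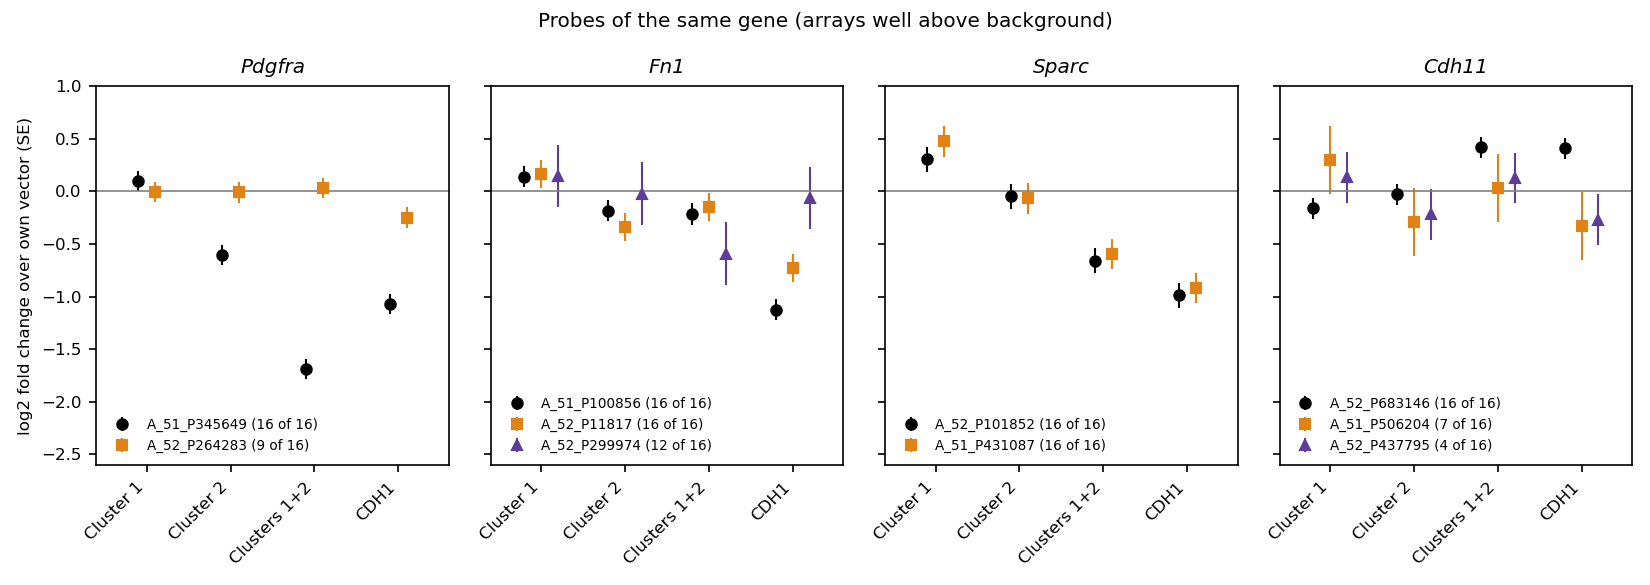
Log2 fold change over the own vector (y axis, bars are standard errors) for each probe of Pdgfra, Fn1, Sparc and Cdh11, in the 4 overexpressions (x axis). Legends give the arrays of 16 on which a probe was well above background. Both Sparc probes fall together in Clusters 1+2 and CDH1 cells, at -0.66 and -0.60 and at -0.99 and -0.92, and the dim second Pdgfra probe stays within 0.25 of zero.

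S100a4, a calcium-binding protein also called fibroblast-specific protein, was too bright for most comparisons. The sample channel of its 1 spot was saturated on 10 of 16 arrays. The spot was also marked on 6 arrays, which the fit left out. In Clusters 1+2 cells its sample-channel intensity was 34149 and 25250, not saturated, against 65280 and 62604 in Hygro and Puro vector cells, both saturated. Over both arrays of each group S100a4 was 2.18-fold lower in Clusters 1+2 cells by geometric means of these intensities and 3.09-fold lower by normalised sample-channel means. The reference channel was also saturated on all Cy3 arrays, which enters the normalised values. With both vector arrays saturated in the sample channel too, neither the ratio nor either fold is exact. The fit called the log2 ratio lower (limma adjusted p = 0.00343) from repeat B of each group alone, with the spread taken from the other groups and the lone arrays assumed to vary like them. Without S100a4, 2 members fell in Clusters 1+2 cells.

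In Cluster 1 cells S100a4 was at 31963 and 33406, against 63321 and, saturated, 64386 in their Puro vector cells, and was not called (adjusted p = 0.285). Over their own control Cluster 1 cells were 1.95-fold lower by geometric means of these intensities but 1.42-fold lower by normalised means. With 1 control array saturated, neither fold is exact. Against the Puro vector cells for CDH1, saturated on both arrays, Cluster 1 cells were 1.97-fold lower by geometric means of the intensities and 1.96-fold lower by normalised means. That call (limma adjusted p = 0.0238) also came from 1 usable array each and the spread of other groups. CDH1 cells and their control were saturated on both arrays each, so no fold is given. The fit, with 1 usable control array, called the ratio lower although sample intensities sat at the limit in both groups. Reference intensities were 21868 and 29338 in CDH1 cells, against 11788 on the usable control array. Without S100a4, 5 members were lower in CDH1 cells over their own vector, and 4 in Cluster 1 cells over the Puro vector for CDH1. In Cluster 2 cells and Hygro vector cells 3 of the 4 arrays were saturated, and S100a4 was not called.

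**Figure D4:**
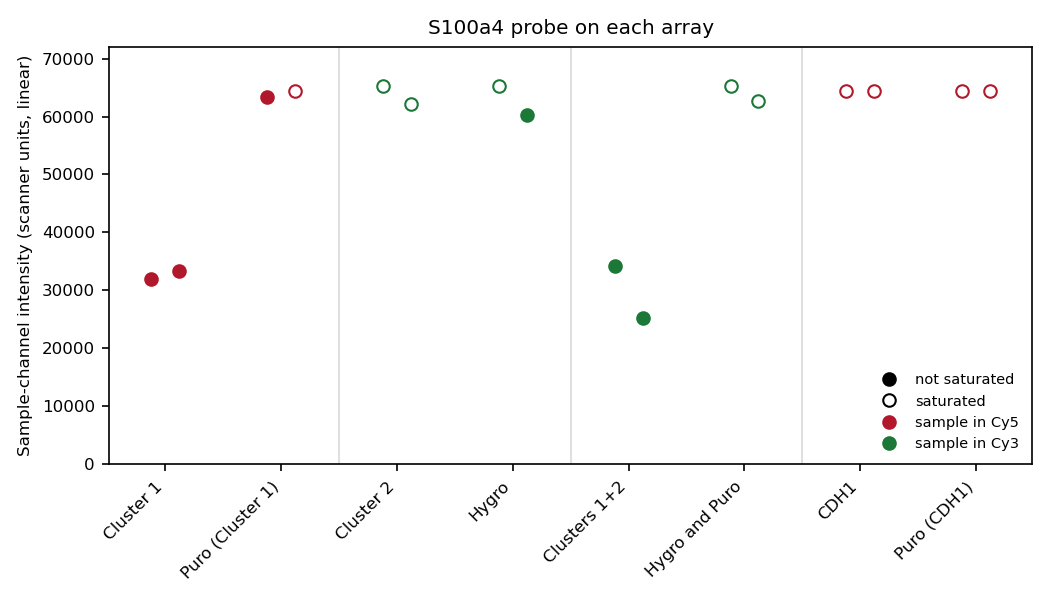
Sample-channel intensity of the S100a4 probe (y axis, scanner units from 0) on each array of the 8 groups (x axis), with open points saturated. The 2 arrays each of Cluster 1 and Clusters 1+2 lie between 25250 and 34149, and all other arrays lie at or near saturation. Intensities are not normalised between arrays.

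The results in CDH1 cells turn on the choice of Puro vector control. The Puro vector cells for CDH1 were higher than those for Cluster 1 in 4 of the 9 members, where 10% of all genes were called, 5.15% higher. These were Fgf7 (1.57), Sparc (0.99), Fn1 (0.91) and Pdgfra (0.49, limma adjusted p = 0.00501), and no member was lower. The values are those of the brightest probe of each gene. The second Fn1 probe was also called (0.62, adjusted p = 0.0109 over probes). The second Sparc probe (0.41, adjusted p = 0.115 over probes), the second Pdgfra probe (0.07) and the third Fn1 probe (0.23) were not called. The 2 comparisons of CDH1 cells share the CDH1 arrays. Against their own Puro vector cells the log2 fold changes were -2.15 for Fgf7, -1.13 for Fn1, -1.07 for Pdgfra and -0.99 for Sparc, and against the Puro vector cells of Cluster 1 they were -0.58, -0.22, -0.58 and 0.00. The 2 Puro controls lay on different slides, so slide and line cannot be told apart in that difference, nor slide and group in CDH1 cells against the Puro vector cells of Cluster 1. Cluster 1 cells set against the Puro vector for CDH1 had 5 of 9 members lower, where 8.6% of genes were called, 3.83% lower. Sparc was among the 5 by its first probe (-0.68). Its second probe was at 0.07 and was not called, nor was the second Fn1 probe (-0.46, adjusted p = 0.0580 over probes). The effect of Cluster 1 minus the effect of CDH1 took each over its own control on its own slide. It was called for 6 members, 5 above and 1 below zero, where 16.9% of genes were called, 8.73% above and 8.17% below. Cdh11, the 1 below zero, was called by its brightest probe only. The effect of Clusters 1+2 minus that of Cluster 2 was called for Pdgfra and Sparc, both below zero, where 6.24% of genes were called, 3.34% below. The second probe of each was not called in that contrast.

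**Figure D5:**
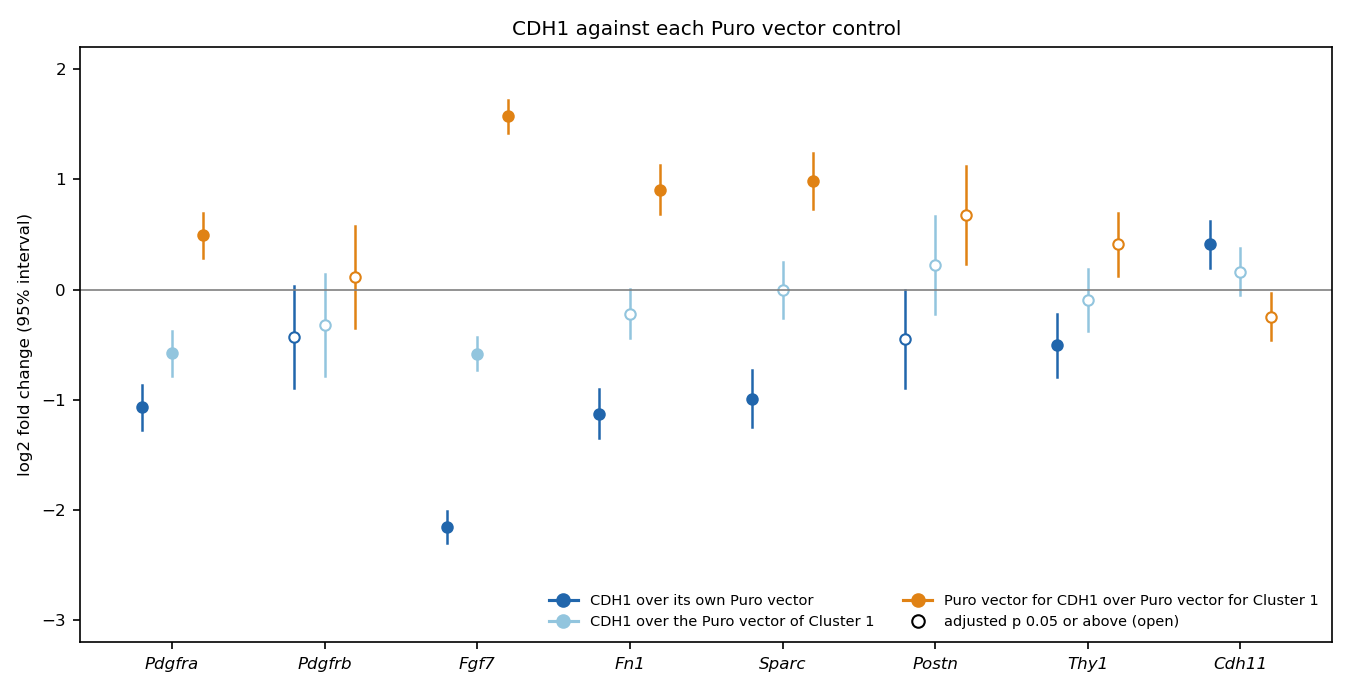
Log2 fold change of 8 members (x axis) with 95% intervals for CDH1 cells over their own Puro vector, CDH1 cells over the Puro vector of Cluster 1, and the Puro vector for CDH1 over that for Cluster 1. Filled points passed limma's adjusted p of 0.05. Pdgfra and Fgf7 stay below zero against both controls, at -0.58 each against the second.

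Among 38 other mesenchymal markers, chosen with results of these data known, 35 were measured. In Clusters 1+2 cells 7 fell and 1 rose, where 24.9% of all genes were called, 12.7% lower and 12.1% higher. The list median there was -0.03 against 0.00 over all genes. Col6a3, a collagen VI chain, fell by 2.25, Zeb2 by 2.10 and Col6a1 by 0.87, and Fbln2, which encodes the matrix protein fibulin-2, rose by 1.34. Zeb2 was also lower in Cluster 2 cells (-0.77) and Cluster 1 cells (-0.39), the 1 marker of the list called in each. Of all genes 2.85% and 8.24% were called in these 2 comparisons. In CDH1 cells 6 fell and 0 rose over their own Puro vector, where 14.5% of all genes were called and 6.78% were lower, with a median of -0.35, among them Col5a1 (-1.05), Col6a3 (-0.89), the proteoglycan gene Dcn (-0.80) and Lum (-0.74). Against the other Puro vector 1 fell, Col5a1 at -0.62 (limma adjusted p = 0.0478), where 2.42% of all genes were called.

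Of 14 ligands, receptors and co-receptors of the PDGF and FGF7 pathways 10 were measured. In CDH1 cells Pdgfa, a ligand of the alpha receptor, fell by 1.27 over their own Puro vector, as the 1 gene called. There 14.5% of all genes were called. The Puro vector cells for CDH1 were higher in Pdgfa by 1.00 than those for Cluster 1. Against the Cluster 1 control no gene of the list was called in CDH1 cells, where 2.42% of all genes were called. In Cluster 1 cells Pdgfa rose by 0.80 and Pdgfc by 0.70, where 8.24% of all genes were called. In Cluster 2 cells, where 2.85% of all genes were called, Pdgfb rose by 1.06, although it was above background on 1 of 2 Hygro vector arrays. The list had 2 genes higher and 1 lower in Clusters 1+2 cells, with Fgfr1, an FGF receptor, at -0.55. This is near the 24.9% of all genes called there.

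Of 37 partners and relatives of the matrix and surface members, 35 were measured in Cluster 1 and CDH1 cells and 34 in the other pairs. Of these 4 rose and 7 fell in Clusters 1+2 cells, where 24.9% of all genes were called. Cdh1, the E-cadherin gene, rose by 2.86 and the relative S100a14 by 1.29, and S100a8 fell by 2.10 and the integrin chain Itgb3 by 1.36. In CDH1 cells 4 rose and 8 fell, where 14.5% of all genes were called, among them S100a8 (-1.53), S100a13 (-1.01), the syndecan Sdc4 (-0.82) and S100a16 (-0.72). In Cluster 1 cells 8 rose and 0 fell, where 8.24% of all genes were called, with Cdh1 at 1.21, Itgb3 at 0.67, beta-catenin (Ctnnb1) at 0.66 and Itgb5 at 0.64. In Cluster 2 cells 4 rose and 1 fell, where 2.85% of all genes were called, with Cdh1 at 1.93, S100a14 at 0.80, Itgb5 at 0.42 and S100a13 at -0.32. The Cdh1 probe was above background on both CDH1 arrays and on neither of their Puro vector arrays (limma adjusted p = 0.00565). In CDH1 cells it was 0.63 higher than in the Puro vector cells of Cluster 1. Cdh1 was above background on 6 of the 8 vector arrays, and the insert species is not given. These values therefore cannot settle whether the CDH1 label holds.

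Some genes followed a member closely over the 16 arrays. After the mean of the arrays of the same dye was subtracted, the log2 ratio of Pdgfra had its highest Pearson correlations with Antxr1 (0.98), Blvrb (0.98) and Tle2 (0.98). Sparc had them with Cd151 (0.97), Olfml3 (0.96) and Bola1 (0.95), and Cdh11 with Mlf1 (0.89), Rbm34 (0.88) and Fcsk (0.86). These are descriptions over arrays that share a reference RNA and fall into 8 pairs, picked as the highest among all genes with values on all arrays. S100a4 and Fgf7 lacked a value on some arrays and were not ranked.

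The promoters of Pdgfra and Sparc are shown because both genes fell in Clusters 1+2 cells and, over their own control, in CDH1 cells. They are from RefSeq (GRCm38.p6), 250 bases before to 50 bases after the start, at chr5:75152001-75152300 on the plus strand and chr11:55420031-55420330 on the minus strand. Both strands were searched for the E-box CAGGTG, a sequence that Zeb proteins bind, and for TGANTCA, the AP-1 sequence. These motifs were found in 20.2% and 7.81% of the 32851 promoters in the table. Sparc holds 1 CAGGTG, which starts at base 250 of 300 and is in capitals, and Pdgfra holds neither motif. The table holds promoters for 5 of the 10 members, and those of S100a4, Fgf7 and Postn hold neither motif either.
Sparc: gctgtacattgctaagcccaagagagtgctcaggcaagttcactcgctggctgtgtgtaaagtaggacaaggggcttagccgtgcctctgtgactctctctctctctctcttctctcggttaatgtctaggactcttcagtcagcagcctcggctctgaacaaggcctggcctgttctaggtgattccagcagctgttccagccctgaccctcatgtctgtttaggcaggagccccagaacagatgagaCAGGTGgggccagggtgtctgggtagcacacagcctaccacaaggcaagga
Pdgfra: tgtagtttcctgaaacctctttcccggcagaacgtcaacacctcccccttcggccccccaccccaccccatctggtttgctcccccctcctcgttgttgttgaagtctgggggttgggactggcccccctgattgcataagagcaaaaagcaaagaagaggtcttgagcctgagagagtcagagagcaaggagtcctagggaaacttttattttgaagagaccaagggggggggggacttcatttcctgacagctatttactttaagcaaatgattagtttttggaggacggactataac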

How the data were processed

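Total RNA of each sample was hybridised with the common reference on 1 of 16 arrays of design 014868. Feature Extraction 9.5.3.1 made the scanner files, which use build mm7 and hold each spot's intensity, per the file headers. The series table deposited by the authors holds a ratio per spot, positive and with medians of 0.903 to 1.175. Its log10 differed from that of the authors' processed signals by at most 8.06e-08, and it served as an alternative. Here mean and background intensities were corrected with normexp (offset 50) and normalised by loess within each array in R 4.3.3 with limma 3.58.1 and the data.table package (1.17.8). Ratios were turned to log2 sample over reference. Marked spots were left out, and spots of a probe were averaged. Probes well above background on both arrays of at least 1 group were kept (27090 of 41174), and the brightest kept probe stood for its gene. A single limma fit of 8 group means gave the tests, which were two-sided with Benjamini-Hochberg adjustment over all genes with a value in that comparison, of 18993 kept. The scripts were tested on simulated data, and figures were drawn with matplotlib 3.10.9.

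Members and gene lists were chosen with earlier results of these data known. All 10 members are named. From each list up to 4 genes per comparison are named, those with the largest change among genes called and beyond both control arrays. For members called in at least 2 comparisons with an own vector, the 3 genes with the highest correlation are named. Settings tried instead are given in the closing section. Repeats A and B of the Cy3 groups shared slides 1 and 2. Deviations of the same letter from the group means correlated at 0.240 to 0.423 over the 6 pairs of Cy3 groups and at -0.0112 to 0.0684 over the 6 of Cy5. The number of arrays limits the precision.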

Additional observations from a re-analysis of the deposited data

Results flagged for a closer look

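Differences between the effects of 2 overexpressions, each over its own vector, were tested as 1 contrast in the limma fit, and 8 of them passed an adjusted p of 0.05 among the members. The effect of Cluster 1 minus that of CDH1 was 2.43 ± 0.10 (log2, SE) for Fgf7 (adjusted p = 5.54e-08), 1.29 for Sparc (adjusted p = 0.000183), 1.26 for Fn1 (adjusted p = 6.47e-05), 1.17 for Pdgfra (adjusted p = 6.86e-05) and 0.61 for Thy1 (adjusted p = 0.0396). It was -0.57 for Cdh11 by its brightest probe (adjusted p = 0.0121). The other Cdh11 probes were opposite in sign, at 0.63 and 0.41, and were not called. Over all genes 16.9% passed. These contrasts use the 2 different Puro vector controls, whose own levels of Fgf7, Sparc, Fn1 and Pdgfra differed.

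The effect of Clusters 1+2 minus that of Cluster 2 was -1.08 for Pdgfra (adjusted p = 0.000346) and -0.62 for Sparc (adjusted p = 0.0487), where 6.24% of all genes passed. The second probes were not called, at 0.04 for Pdgfra and -0.53 for Sparc (adjusted p = 0.169 over probes). Adjusted over probes, the first Pdgfra probe passed (adjusted p = 0.000403) and the first Sparc probe did not (adjusted p = 0.0538). The alternatives counted in the next section did not cover differences between effects. Each of these effects was measured over a control on the same slides. The causes of the differences were not tested.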

How the results depend on the processing

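Across up to 17 alternatives each, 613 values kept their direction and side of the threshold, 55 lost the call and 22 gained it. A further 56 changed sign without being called in either setting. Only 1 that was called reversed its sign, which was Cdh11 in CDH1 cells with the mean of all probes (-0.0631). The processed signals and the deposited table are counted separately here but hold the same ratios, so they had to give the same outcome. Pdgfra in Clusters 1+2 cells and Fn1, Sparc, Pdgfra and Fgf7 in CDH1 cells over their own vector kept their calls under all 17, but sizes fell by over 1.5 times with the mean of all probes for Pdgfra in Clusters 1+2 cells (-0.83) and for Fn1 (-0.64) and Pdgfra (-0.66) in CDH1 cells. Calls were lost in 7 of 17 for Thy1 in CDH1 cells and for Pdgfra against the other Puro vector, in 6 for Cdh11 in CDH1 cells besides its reversal, in 2 for Fgf7 against the other Puro vector and in 1, scaled spread, for Sparc in Clusters 1+2 cells. The number of members called in Cluster 1 cells, 1, became 0 with marked spots in the background fit, marked spots kept throughout (added after seeing the data), arrays scaled to 1 spread or no filter, 2 with the mean of probes and 3 with the replicate block. Where it stayed 1 the member was not always Fgf7: it was Postn with the processed signals and Sparc with median centring. In Cluster 2 cells 1 became 0 with marked spots in either form, scaled spread, the sample channel alone or the mean of probes, and 2 with the replicate block. In Clusters 1+2 cells 4 became 2 with the processed signals, scaled spread or the deposited table. In CDH1 cells against the other Puro vector 2 became 0 with marked spots in either form and 1 with scaled spread or the mean of probes. Leaving out 1 array gave 0 in Cluster 1 cells, 1 in Cluster 2 cells, 2 to 5 in Clusters 1+2 cells, 4 to 6 in CDH1 cells (7 with all arrays) and 1 to 2 against the other Puro vector. In the Cy5 groups, where the repeats share only a letter, the replicate block gave calls for Postn in CDH1 cells (adjusted p = 0.00619) and Cluster 1 cells (adjusted p = 0.0176), Pdgfrb in CDH1 cells (adjusted p = 0.0356) and S100a4 in Cluster 1 cells (adjusted p = 0.0384). Causes were not tested. Counts over all genes ranged from 191 to 2263 in Cluster 1 cells (1563 as reported), 75 to 2288 in Cluster 2 cells (540), 1859 to 5049 in Clusters 1+2 cells (4714), 1247 to 3825 in CDH1 cells (2745) and 34 to 2027 against the other Puro vector (459). Median centring shifted the median of all genes by 0.14 in Cluster 2 cells and 0.11 in CDH1 cells. With it the share of higher calls was 93.4% in Cluster 2 cells (62.6% as reported), 82.7% in CDH1 cells (53.1%), 80.2% against the other Puro vector (52.3%) and 69.2% in Cluster 1 cells (58.7%). Saturation limits S100a4, and signal near background limits Pdgfrb, Postn and the second probes of Pdgfra and Cdh11.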
